A study of Drosophila melanogaster with 20 samples.

Results

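The comparison described here sets whole larvae of a Drosophila melanogaster line without a working mitochondrial carrier of S-adenosylmethionine (SAM), named SAMC-null, against control larvae. Its members are the 10 libraries whose labels name these groups, 5 in each, of the 20 libraries in the series, and genes were tested where 5 or more of these libraries had a value of 10 or higher. SAMC-null is labelled a severe mutant with the genotype DnSAMC.M1fs;M39*, a notation for a shifted reading frame and a stop codon, and the control larvae carry no change in the carrier. Both groups have the wDah background and were 4 days old at 25 °C. The other 10 libraries hold 5 each of the lines I172G and P223L, which carry single amino acid changes in the same protein and are labelled mild and severe. RNA was depleted of ribosomal RNA and read as 75-base pairs. The labels give age in days but no instar, sex or number of larvae per library, nor do they state that replicates are separate cultures, so p-values measure the spread between these libraries, which may be technical.

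SAM is the methyl donor of the cell and is made in the cytosol, so mitochondria depend on a carrier in their inner membrane to import it. Inside, it is used to methylate ribosomal RNA, transfer RNA and proteins, to build the respiratory electron carrier ubiquinone, and, through radical chemistry at an iron-sulfur cluster, to make lipoic acid, a cofactor of several dehydrogenases. In fly larvae, growth and moulting are timed by ecdysone and juvenile hormone, and the fat body of the third instar fills the blood with storage proteins while the salivary glands make glue for the pupa.

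The values are normalised read counts made by the authors, and all fold changes are on the scale of log2(value + 1), SAMC-null minus control. Of 12252 genes tested with limma, 4677 (38.2%) were higher in SAMC-null larvae and 5329 (43.5%) were lower at an adjusted p below 0.05. Changes of at least 2-fold numbered 1879 upward (15.3%) and 3079 downward (25.1%). Every SAMC-null library lay above every control library for 33.3% of tested genes and below for 38.6%. With 81.7% of all genes called, the count of changed members in a gene group is read below against these shares. The 10 libraries fell into their labelled groups along the first principal component, which held 92.1% of the variance. Control replicate 4 stood apart from the other control libraries on the second component, which held 2.49%, and without it 4721 genes were higher and 5390 lower. Summed values per library were 33210000 to 35430000 in control and 22090000 to 22850000 in SAMC-null, and larval serum protein transcripts made up 10.8 to 12.1% of the control sums and at most 0.00143% of the SAMC-null sums. Without these transcripts the control sums were 29350000 to 31130000, so most of the gap remained. Scaling every library to an equal sum moved the median of all genes from -0.06 to 0.54, a shift of 0.60, and turned the split to 7420 higher and 3296 lower. The direction or call of a change smaller than this shift can depend on the scaling, and counts or medians with equal sums are given below beside the gene groups whose median was smaller than it.

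The carrier transcript itself, CG4743 on chromosome 3R at 25679242 to 25680550 (BDGP 6.54), was read at 93.5, 124, 125, 149 and 133 in the control libraries and at 121, 121, 90.4, 117 and 113 in the SAMC-null libraries. The groups overlapped, and the log2 fold change of -0.14 ± 0.14 did not pass the threshold (adjusted p = 0.35). With equal sums it was 0.46 and passed (adjusted p = 0.010), so neither its sign nor its call is independent of the scaling. A shifted frame and a stop codon need not change the amount of transcript, so this level is no check of the labels. The marker genes white (w), an eye pigment transporter, and yellow (y), which acts in cuticle pigmentation, did separate the lines. In the control libraries w ranged from 3.47 to 23.4, and SAMC-null libraries ranged from 824 to 2310, with a log2 fold change of 7.43 ± 0.45. The gene y ranged from 0 to 30.3 in control and from 926 to 1081 in SAMC-null, with a log2 fold change of 7.14 ± 0.70. The P223L libraries lay between them, at 194 to 822 for w and 256 to 306 for y, and the groups did not overlap for y, while for w the highest P223L library came close to the lowest SAMC-null one. What differs between strains other than the carrier cannot be told apart from the carrier in these comparisons.

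**Figure D1:**
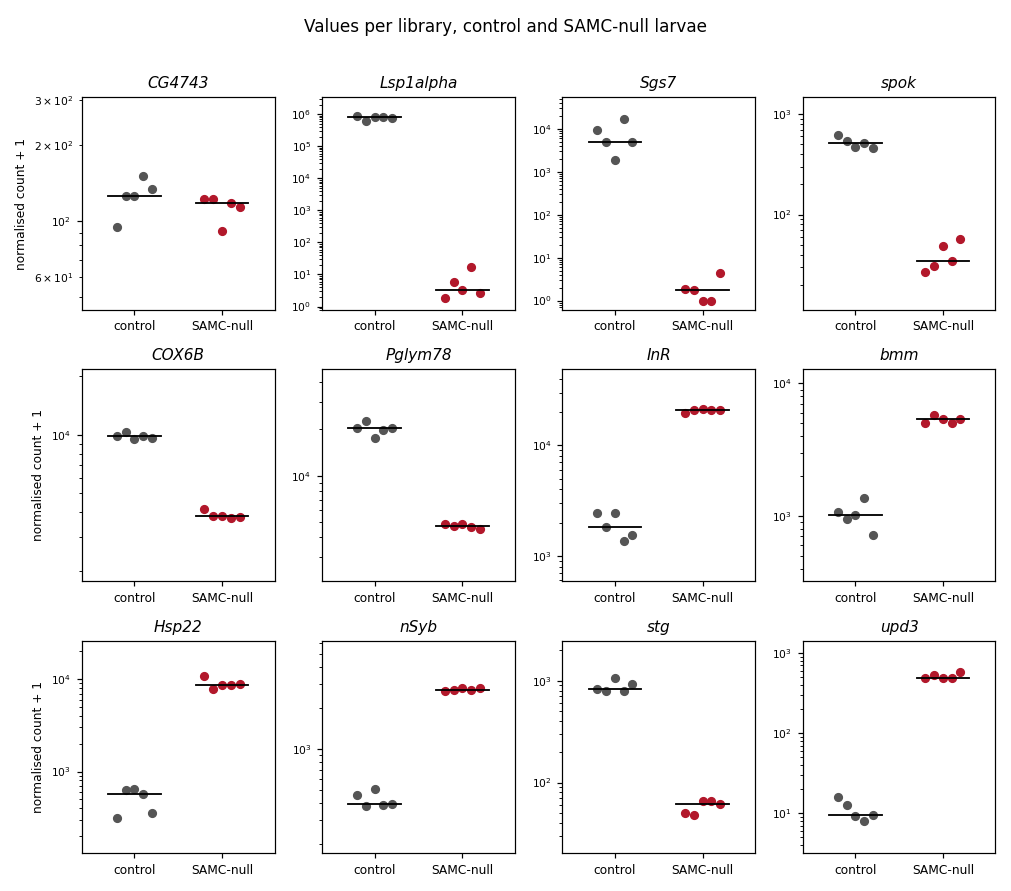
Normalised read counts (vertical log axis, plotted as value + 1) of 12 genes in each of the 5 control and 5 SAMC-null libraries, with horizontal bars at the group medians. The groups separate for all genes shown except the carrier transcript CG4743, whose values run from 90.4 to 149.2.

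Most of the largest decreases were in proteins that the fat body and epidermis make late in larval life. The blood storage protein Lsp1alpha had values of 873796, 625243, 843128, 831652 and 763258 in control and 0.786, 4.62, 2.27, 15.9 and 1.68 in SAMC-null, a log2 fold change of -17.47 ± 0.47 (adjusted p = 9.8e-12). Its partner Lsp1beta (-17.20) and the related Lsp2 (-16.37) were almost as far down. No SAMC-null library reached a value of 50 for any of these 3, while no control library was below 532655. Lsp1gamma kept more transcript, with 141 to 249 in SAMC-null libraries against 1136288 to 1357283 in control, and still had the smallest standard error of the group (-12.63 ± 0.13). The uptake receptor Fbp1 (-13.86) and Fbp2 (-15.03), another fat body protein, completed the list of serum and fat body genes, in which 6 of 6 fell. The odorant-binding protein Obp99b fell by 16.10 ± 0.25, from 108178 to 205815 in control to 0.776 to 3.36. The larval cuticle proteins Lcp3 (-14.93), Lcp9 (-14.40) and Lcp65Ab1 (-13.24) and the uncharacterised CG17105 (-13.88) made up the rest of the 10 largest decreases, and Lcp65Ab1 has a near-identical copy that could share its reads. In all, 95 genes had at most 1 in every SAMC-null library and at least 50 in every control library.

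The largest increases were smaller and reached genes that were nearly silent in control larvae. CG42815, at 484, 393, 402, 341 and 429 in SAMC-null, is listed at 0 for each control library and was the sole gene with at least 50 in every SAMC-null library and at most 1 in every control library. The secreted immune peptide BomS6 was at 3.44, 1.08, 1.18, 1.17 and 2.9 in control and at 751, 867, 785, 756 and 744 in SAMC-null, a log2 fold change of 8.13 ± 0.23 (adjusted p = 1.5e-11). Its relative BomS5 was listed at 0 in control and at 6.84 to 23.1 in SAMC-null. The 10 largest increases were taken only from genes whose groups did not overlap, so their separation is a condition of the choice. Among them were also w, y, the alkaline phosphatase phu (7.15 ± 0.37) and the scavenger receptor relative CG7227 (7.12 ± 0.24), and the uncharacterised CG32188 (8.09), CG32189 (7.98), CG13215 (7.50) and CG43117 (7.45). CG43117 varied in control, where 1 library had 201.0 and the others 3.58 to 18.2. For the opposite pattern, the glue gene Sgs5 and the ecdysone-induced Eig71Ee were the most abundant control genes that were listed at 0 in every SAMC-null library, with control values of 741 to 5995 and 379.9 to 4118.

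Nuclear genes of the respiratory chain fell together while the transcripts of the mitochondrial genome did not. Of 34 nuclear subunits of complex I, which takes electrons from NADH, 33 fell and none rose, with a median log2 fold change of -0.78 beside -0.06 for all genes. Of 33 subunits of complexes II to V, all 33 fell, with a median of -1.03 and a range of -1.42 to -0.39. COX6B of cytochrome oxidase had values of 9844, 10330, 9479, 9797 and 9678 in control and 4155, 3844, 3846, 3723 and 3788 in SAMC-null, a log2 fold change of -1.34 ± 0.04 (adjusted p = 2.7e-11). Every SAMC-null library lay below every control library for it, and the same held for the succinate dehydrogenase anchor SdhD (-1.17 ± 0.05) and the ATP synthase subunits ATPsynO (-1.37 ± 0.06) and ATPsynD (-1.12 ± 0.05). Among complex I subunits ND-MLRQ (-1.42 ± 0.07), ND-B12 (-1.24 ± 0.07), ND-B17 (-1.18 ± 0.06) and ND-18 (-0.72 ± 0.04) gave the smallest adjusted p. ND-51, the flavoprotein that binds NADH, was the exception, with 6139 to 6825 in control and 6347 to 6992 in SAMC-null (0.03 ± 0.04, adjusted p = 0.45), and it was higher with equal sums (0.64). With equal sums the medians were -0.17 and -0.43, and the counts were 4 higher and 18 lower for complex I and 2 higher and 26 lower for complexes II to V, among all genes at a median of 0.54.

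The 13 transcripts of the mitochondrial genome analysed here had a median log2 fold change of 0.01, with 5 higher and 4 lower. Their summed values took 4.95 to 5.34% of the library sums in control and 7.59 to 7.92% in SAMC-null, without overlap. The summed values themselves overlapped, at 1655900 to 1847900 in control and 1691100 to 1773300 in SAMC-null, so the shares differ along with the library sums. Most of both was mitochondrial ribosomal RNA, at 3.36 to 3.67% of the library sums in control and 5.11 to 5.38% in SAMC-null. Sums and shares thus say little about the protein-coding transcripts. The complex I transcript mt:ND1 fell, from 8643, 8209, 7457, 7987 and 8070 in control to 4186, 4363, 4126, 4395 and 4697 in SAMC-null (-0.89 ± 0.05, adjusted p = 4.6e-09), with no overlap, and it was the sole member lower under equal sums as well. Smaller decreases of mt:CoII (-0.40 ± 0.05), mt:CoIII (-0.23 ± 0.06) and mt:ND5 (-0.19 ± 0.05) turned into increases with equal sums. The ATP synthase transcript mt:ATPase8 rose from 17248 to 20493 to 28733 to 35062 (0.73 ± 0.06), and mt:Cyt-b (0.57 ± 0.06), mt:ND3 (0.66 ± 0.12) and mt:ND4L (0.27 ± 0.06) rose too. Of the ribosomal RNAs, the small one, mt:srRNA, was at 2530, 2613, 2309, 1785 and 1784 in control and 2535, 4045, 3839, 5883 and 4046 in SAMC-null (0.85 ± 0.19, adjusted p = 0.0012), and 1 SAMC-null library lay inside the control range. The large one, mt:lrRNA, is far more abundant and did not pass the threshold (-0.02 ± 0.11), and both values follow depletion of ribosomal RNA. mt:CoI (0.01 ± 0.07), mt:ND2 (-0.25 ± 0.20) and mt:ND6 (0.30 ± 0.40) did not pass either. mt:ND2 did pass without control replicate 3 (-0.42, adjusted p = 0.023), and mt:CoI (0.62) and mt:lrRNA (0.59) passed with equal sums. The direction within this group is thus mixed, and with equal sums 10 members were higher and 1 was lower.

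**Figure D2:**
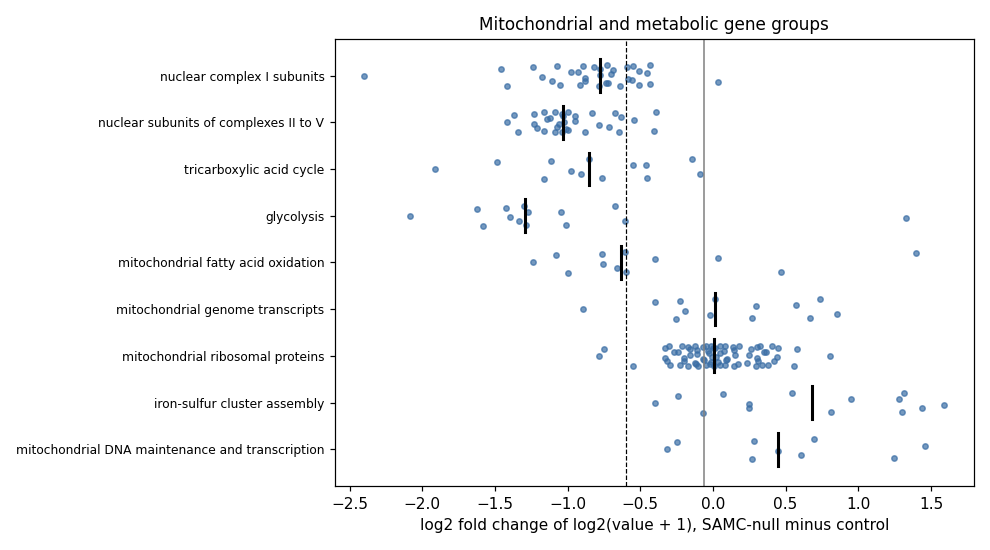
Log2 fold change, SAMC-null minus control, of each tested member (points) of 9 mitochondrial and metabolic gene groups, with black bars at the group medians. The grey line marks the median of all genes, -0.06, and the dashed line lies 0.60 below 0, where a gene would show no change after scaling to equal sums. Nuclear respiratory chain, tricarboxylic acid cycle and glycolysis genes lie mostly left of it.

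Several groups of genes that maintain mitochondria were higher. Iron-sulfur cluster assembly had 9 of 14 genes higher and 2 lower (median 0.68). The scaffold IscU was at 1290, 1240, 1209, 1426 and 1202 in control and 3422, 3122, 2983, 3090 and 3025 in SAMC-null (1.30 ± 0.06, adjusted p = 5.8e-10), the sulfur donor Nfs1 rose by 1.32 ± 0.07 and the electron donor Fdx1 by 1.59 ± 0.10, each without overlap between groups. Among 9 genes that copy and transcribe the mitochondrial genome, 7 rose and 2 fell, and all 9 were higher with equal sums. The mitochondrial RNA polymerase PolrMT was highest of them in fold change, at 561 to 918 in control and 2013 to 2102 in SAMC-null (1.46 ± 0.10), followed by mtDNA-helicase (1.25 ± 0.09) and the polymerase subunit PolG1 (0.70 ± 0.05). Of 12 mitochondrial chaperones and proteases, 11 rose, led by the matrix chaperone Hsp22, with 313, 631, 641, 571 and 354 in control and 10948, 7821, 8752, 8653 and 8840 in SAMC-null (4.22 ± 0.19, adjusted p = 9.4e-10). The inner membrane protease subunits Afg3l2 (0.92 ± 0.05) and Spg7 (0.90 ± 0.05) and the chaperone Hsc70-5 (0.79 ± 0.05) rose by less than 2-fold. The 73 mitochondrial ribosomal proteins had a median of 0.01, with 19 higher, 11 lower and 43 not called, so their count of calls was below the share of all genes. The 11 lower became 17 without control replicate 3 and 7 without SAMC-null replicate 5, and with equal sums 66 of the 73 were higher and none was lower.

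Enzymes of central carbon metabolism were lower. In the tricarboxylic acid cycle 12 of 13 enzymes fell and none rose (median -0.85), and in glycolysis 13 of 14 fell (median -1.29). The succinyl-CoA synthetase subunit ScsbetaG had 3449, 3289, 3117, 3786 and 3440 in control and 993, 902, 861, 869 and 905 in SAMC-null (-1.91 ± 0.06, adjusted p = 2.7e-11). The malate dehydrogenase Mdh2 fell by 1.49 ± 0.04 and the aconitase mAcon1 by 1.16 ± 0.06, while the oxoglutarate dehydrogenase Ogdh, a lipoate-dependent enzyme, was at 10866 to 12903 in control and 10891 to 11578 in SAMC-null (-0.09 ± 0.05, adjusted p = 0.14). Ogdh passed as lower without control replicate 4 (-0.13) and as higher with equal sums (0.51). In glycolysis the mutase Pglym78 was at 20291, 22487, 17598, 19809 and 20424 in control and 4850, 4762, 4875, 4639 and 4522 in SAMC-null (-2.08 ± 0.06, adjusted p = 1.4e-11), and the aldolase Ald1 (-1.63 ± 0.05), Gapdh1 (-1.58 ± 0.06) and the pyruvate kinase PyK (-1.39 ± 0.06) fell with it. The hexokinase Hex-A, which starts the pathway, was the 1 member to rise (1.33 ± 0.10). Of 12 genes of mitochondrial fatty acid oxidation 9 fell and 2 rose. The acyl-CoA dehydrogenases CG3902 (-1.24 ± 0.07) and Arc42 (-0.998 ± 0.07) and the hydroxyacyl-CoA dehydrogenase scu (-1.08 ± 0.07) fell, while whd, the carnitine palmitoyltransferase that admits fatty acids to mitochondria, rose from 1628 to 2500 to 5274 to 5760 (1.40 ± 0.11). With equal sums the medians were -0.25, -0.69 and -0.03 for the 3 groups, and 4 tricarboxylic acid cycle enzymes were then higher, while the fatty acid oxidation genes became 3 higher and 4 lower.

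Genes that make and use SAM moved in both directions. Sam-S, which makes SAM from methionine, had 17023, 13194, 19209, 13234 and 14952 in control and 28671, 29240, 28018, 28186 and 28412 in SAMC-null, a log2 fold change of 0.89 ± 0.09 (adjusted p = 1.9e-06) with no overlap. Cbs, which commits homocysteine to cysteine synthesis, rose more, from 881 to 1123 to 3533 to 3787 (1.87 ± 0.07), and the next enzyme of that route, Cth, fell from 4485 to 5964 to 1957 to 2284 (-1.31 ± 0.09). Ahcy, which clears the methylation product S-adenosylhomocysteine, rose by 0.45 ± 0.06. In all, 3 of 13 methionine cycle genes rose and 7 fell, with a median of -0.22 that became 0.38 with equal sums. Without control replicate 4 the number that rose was 5. With all libraries, the share of methionine cycle genes called in either direction was near the 81.7% of all genes. Of 9 enzymes that use SAM in mitochondria, 5 rose and 1 fell, all by less than 2-fold, and with equal sums all 9 were higher. Among them were rswl (0.55 ± 0.08), the lipoic acid synthase Las (0.48 ± 0.07), the ubiquinone methyltransferase Coq5 (0.43 ± 0.07) and mtTFB1 (0.24 ± 0.05), a methyltransferase of the small ribosomal RNA.

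Most genes of the insulin and starvation list were higher. The insulin receptor InR was at 2454, 1828, 2429, 1352 and 1545 in control and 19562, 21097, 21337, 20857 and 20745 in SAMC-null, a log2 fold change of 3.47 ± 0.15 (adjusted p = 4.2e-10). The groups were far apart, as they were for ImpL2, a secreted protein that binds insulin-like peptides, which rose from 920.1 to 1349 to 6043 to 6868 (2.62 ± 0.09). The receptor substrate chico (1.19 ± 0.06) and the kinase Pi3K92E (1.02 ± 0.05) also rose, and 12 of the 18 genes in the insulin and starvation list were higher and 3 lower, or 14 and 1 with equal sums. The brain-derived insulin-like peptide Ilp5 was among those that fell, from 36.7 to 60.3 in control to 2.27 to 8.3 (-2.95 ± 0.30). Thor, a translation inhibitor that is raised when insulin signalling is low, went from 1194, 941, 1053, 569 and 451 in control to 3475, 3925, 3865, 4440 and 3706 in SAMC-null (2.29 ± 0.23, adjusted p = 1.2e-06). Together with trbl (1.61 ± 0.07), Sesn (1.10 ± 0.06), Xrp1 (1.01 ± 0.06) and the mitochondrial folate enzyme Nmdmc (1.70 ± 0.15) it was among 7 of 12 ATF4 target and serine synthesis genes that rose, while 2 fell. The asparagine synthetase AsnS, another known ATF4 target, was at 632 to 1682 in control and 827 to 1207 in SAMC-null and did not pass the threshold (adjusted p = 0.18), although without control replicate 5 it did, at -0.57.

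Genes of fat storage and fatty acid synthesis moved in both directions. The triglyceride lipase bmm rose from 1062, 951, 1019, 1363 and 711 in control to 5008, 5784, 5406, 5048 and 5357 in SAMC-null (2.41 ± 0.13, adjusted p = 4.3e-09), and the lipase Hsl (1.09 ± 0.06), the phosphatidate phosphatase Lpin (1.31 ± 0.06) and SREBP, the transcription factor of lipid synthesis (1.07 ± 0.05), rose as well. The lipoprotein apolpp, which carries lipid from the fat body through the blood, fell from 486467 to 566467 to 66929 to 81093 (-2.83 ± 0.08), and Mtp, which loads it, fell by 2.04 ± 0.04. No group overlapped for these 6 genes. Over the 17 genes of this list, 5 rose and 10 fell, with a median of -1.04. Autophagy had 16 of 20 genes higher and 3 lower (median 0.58), or 18 and 1 with equal sums. The kinase Atg1, which starts autophagy, was at 1079, 932, 1060, 996 and 888 in control and 5148, 5284, 5111, 5161 and 4739 in SAMC-null (2.36 ± 0.06, adjusted p = 5.7e-12), and its partners Atg101 (2.10 ± 0.05) and Atg17 (1.41 ± 0.06) rose too. The testis-expressed Atg8b went the other way, with 49.6 to 131 in control and at most 0.837 in SAMC-null.

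Of 87 cytosolic ribosomal proteins 75 rose and 6 fell, but by little, with a median of 0.27 that equal sums raised to 0.88. RpL3 (0.55 ± 0.05), RpL15 (0.54 ± 0.05) and RpL40 (0.54 ± 0.04) gave some of the smallest adjusted p, and the exception RpL10Aa, a testis-expressed copy, was at 42.9 to 97.8 in control and listed at 0 in every SAMC-null library. Ribosome biogenesis genes rose in 13 of 16 cases, with the nucleolar GTPase Non1 at 9766 to 13215 in control and 48006 to 50015 in SAMC-null (2.17 ± 0.07) and the growth regulator Myc at 2606 to 3481 and 9613 to 10182 (1.70 ± 0.06). Among 18 cytosolic aminoacyl-tRNA synthetases 12 rose and 4 fell, led by ValRS (1.36 ± 0.07) and TrpRS (1.01 ± 0.08), and with equal sums all 18 were higher. Proteasome subunits fell in 32 of 32 cases, with a median of -0.80, and the examples Prosalpha7 (-1.09 ± 0.06), Prosbeta6 (-0.999 ± 0.06), Rpn2 (-0.77 ± 0.04) and Rpn1 (-0.72 ± 0.04) did not overlap between groups. With equal sums 18 of the 32 were still lower and none was higher.

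Genes of DNA replication and mitosis were lower in 25 of 25 cases, with a median of -2.003. The phosphatase stg, which starts mitosis, was at 831, 797, 1055, 787 and 935 in control and 49.4, 46.8, 65.7, 64.6 and 60.4 in SAMC-null (-3.92 ± 0.12, adjusted p = 3.1e-11). The mitotic kinase polo (-3.64 ± 0.12), the cyclin CycA (-2.31 ± 0.07) and the polymerase PolA1 (-2.26 ± 0.07) followed, each without overlap, and with equal sums 21 of the 25 were lower and 1 was higher. Of the replication-dependent histone genes, 55 of 84 tested copies fell and 10 rose. These copies are near-identical and share reads, so single copies are uncertain. Their summed values were 35414 to 50716 in control and 25196 to 28744 in SAMC-null.

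Hormone genes were low where ecdysone is made and where juvenile hormone is broken down. Of 10 ecdysone synthesis genes 8 fell and 2 rose. The prothoracic gland enzymes spok (622, 536, 467, 512 and 462 in control, 25.5, 29.8, 47.7, 33.4 and 55.9 in SAMC-null, -3.77 ± 0.20), sad (-3.66 ± 0.17) and phtm (-2.59 ± 0.12) fell by more than shd (-0.98 ± 0.06), the enzyme that makes the active hormone in peripheral tissue. Ptth, the brain peptide that drives the gland, rose from 12.9 to 28.1 to 56.2 to 72.3 (1.54 ± 0.21), and so did Cyp18a1, which breaks ecdysone down (0.78 ± 0.14). Targets of the hormone were divided, with 7 of 15 higher and 6 lower, or 9 and 4 with equal sums. Without that scaling the counts were near the 38.2% higher and 43.5% lower of all genes. The early genes br, at 4458 to 5759 in control and 1643 to 2069 in SAMC-null (-1.39 ± 0.08), and Eip74EF (-1.85 ± 0.10) fell. Eip75B (1.51 ± 0.08) and Eip78C, at 43.5, 45.9, 41.9, 41.5 and 33.1 in control and 447, 429, 499.8, 473 and 471 in SAMC-null (3.47 ± 0.10), rose. For juvenile hormone, the breakdown enzymes Jheh1 (-2.995 ± 0.08), Jheh2 (-3.81 ± 0.10) and Jheh3 (-1.73 ± 0.08) fell, while the receptor Met (1.18 ± 0.07), its target Kr-h1 (1.09 ± 0.07) and the synthetic enzyme jhamt (1.17 ± 0.21) rose, each by 1.09 to 1.18. None of these 6 genes overlapped between the groups.

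Glue genes of the salivary gland fell in 6 of 8 tested cases of 10 listed. Only 4 of the 10 passed the filter of 10 in 5 libraries among the SAMC-null and P223L libraries. The others tested passed through their control values and could hardly be higher in SAMC-null. The summed values of the list were 16460 to 36085 in control and 5366 to 7889 in SAMC-null. Sgs7 went from 9255, 4858, 1858, 16604 and 5009 in control to at most 3.29 in SAMC-null, and Sgs3 (-9.86), Sgs5 and Sgs8 (-7.54) fell alongside. Their control values varied widely, with Sgs7 highest in control replicate 4 and lowest in replicate 3. The 1 member that rose, ng2, is another salivary gland gene (0.93 ± 0.21). Cuticle proteins included members of both directions. Of 49 Cpr proteins 30 fell and 12 rose, and of 29 Lcp and Tweedle proteins 14 fell and 10 rose, with ranges of -8.62 to 4.81 and -14.93 to 6.11. Of all genes 43.5% fell and 38.2% rose, and the Lcp and Tweedle counts were near these shares. Lcp4 was at 196319 to 305456 in control and 137 to 205 in SAMC-null (-10.50 ± 0.15), Lcp1 fell by 11.78 ± 0.19, and Cpr47Ec (-7.31 ± 0.18) and TwdlX (-3.58 ± 0.06) by less. Chitin turnover genes fell in 13 of 17 cases, with the chitinase Cht7 (-2.45 ± 0.07), the chitin-binding obst-B (-4.04 ± 0.14) and the chitinase-like growth factor Idgf6 (-2.08 ± 0.04) among them. Of 12 tanning genes 7 fell and 4 rose, against 4 each way with equal sums. The pigment gene yellow-e fell from 1661 to 2106 to 47.2 to 77.1 (-4.88 ± 0.13), and the dopa decarboxylase Ddc rose from 330.0 to 439 to 867 to 1278 (1.34 ± 0.11). Glue and serum transcripts normally mark the last part of larval life, and they separated the groups at the same age of 4 days. The part of developmental stage in the other differences was not tested.

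**Figure D3:**
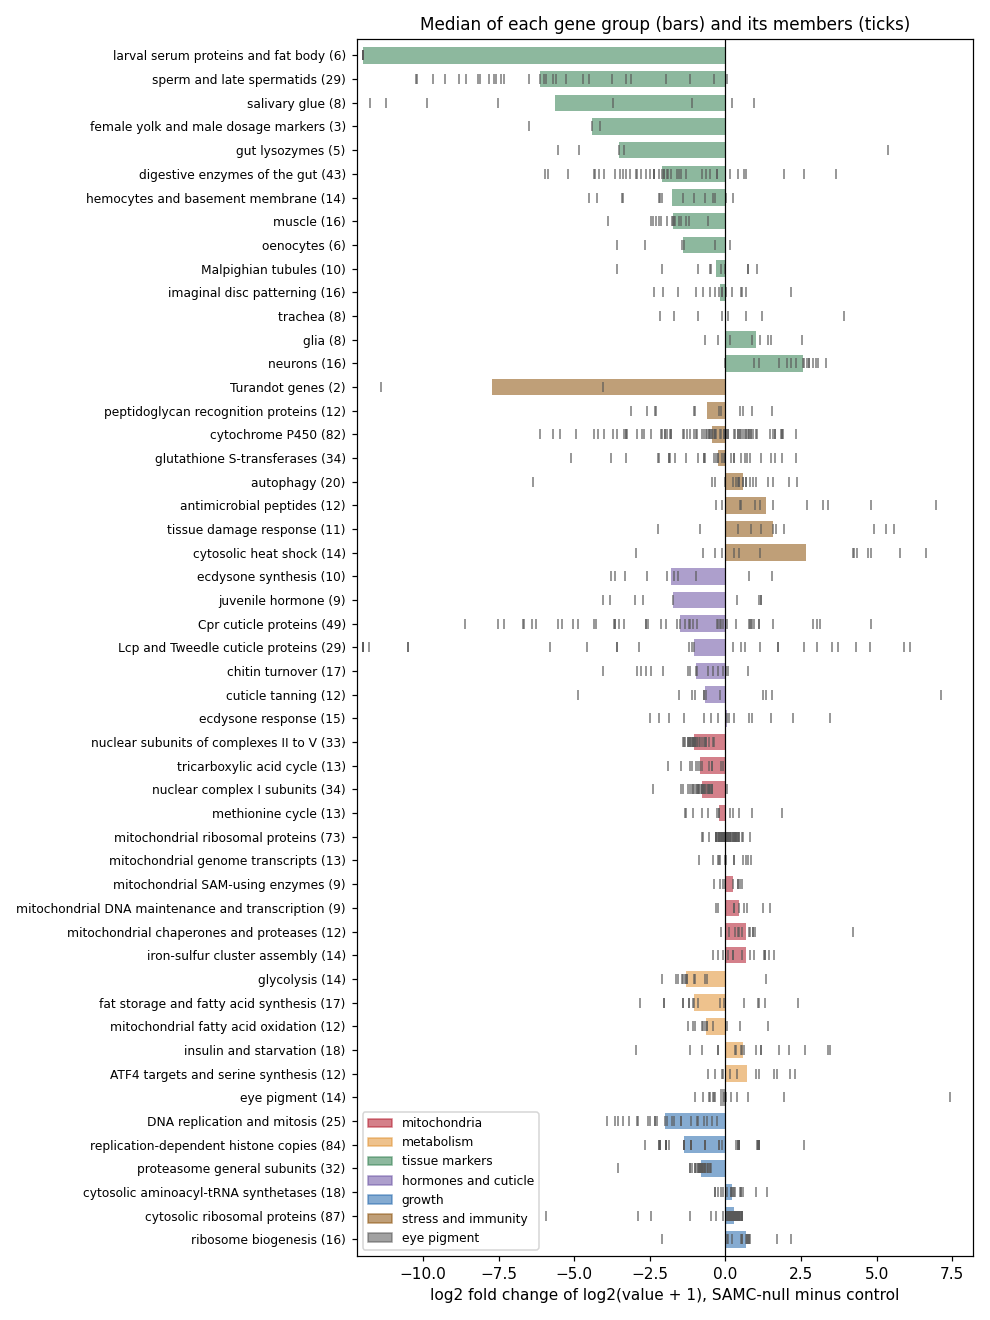
Median log2 fold change (bars' ends), SAMC-null minus control, of 51 gene groups, with each tested member as a grey tick and the number tested after each name. The horizontal axis is cut at -12 and 8, with members beyond it, and the serum protein bar, drawn to the edge. Serum proteins, with a median of -15.70, lie lowest, and heat shock and neuronal genes, at 2.68 and 2.57, highest.

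Tissue markers differed in their direction. In bulk RNA of whole larvae, fewer cells of a type and less RNA per cell cannot be told apart. Neuronal markers rose in 15 of 16 cases with a median of 2.57, and their summed values were 13037 to 15550 in control and 46146 to 49774 in SAMC-null. The vesicle protein nSyb was at 455, 378, 501, 387 and 394 in control and 2673, 2692, 2812, 2718 and 2817 in SAMC-null (2.70 ± 0.07, adjusted p = 1.3e-11), and the GABA receptor Rdl (3.34 ± 0.10), the sodium channel para (3.07 ± 0.10) and the GABA synthesis enzyme Gad1 (2.75 ± 0.08) rose by as much or more. The vesicle calcium sensor Syt1 did not, at 3804 to 5118 and 4191 to 4500 (-0.01 ± 0.07), though it was higher with equal sums (0.59). Glial markers rose in 6 of 8 cases, with the GABA transporter Gat (2.52 ± 0.07), the glial fate regulator repo (1.51 ± 0.10) and the receptor moody of the blood-brain barrier (1.15 ± 0.08), and wrapper of the cortex glia fell by 0.67 ± 0.13, a call that was lost with equal sums (-0.08). Without control replicate 3 a further glial marker fell, making 2. The summed values of the glial markers were 7313 to 11707 in control. In SAMC-null they were 11356 to 11638, inside the control range.

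Muscle genes fell in 16 of 16 cases, with a median of -1.75 and summed values of 2090200 to 2560400 in control and 581430 to 605360 in SAMC-null. The actin Act87E was at 40927, 32779, 28872, 37469 and 36611 in control and 2526, 2598, 2438, 2159 and 2152 in SAMC-null (-3.89 ± 0.09, adjusted p = 3.7e-12), and the troponins TpnC47D (-2.19 ± 0.06), wupA (-1.94 ± 0.05) and TpnC73F (-1.69 ± 0.04) fell with no overlap. Blood cell and basement membrane genes fell in 12 of 14 cases, among them the peroxidase Pxn (-3.38 ± 0.06), Hml (-2.11 ± 0.07), the scavenger receptor Sr-CI (-2.19 ± 0.09) and PPO2, the crystal cell phenoloxidase, which went from 8130 to 19374 to 510.2 to 766 (-4.24 ± 0.19). Among gut digestive enzymes 34 of 43 fell and 5 rose. The proteases Jon66Ci, at 106502 to 121119 in control and 1619 to 2150 in SAMC-null (-5.98 ± 0.08), and Jon65Aiv (-3.67 ± 0.06) and the lipase mag (-4.35 ± 0.07) fell without overlap. Of 5 lysozymes 4 fell, such as LysS (-4.84 ± 0.12), and LysX rose from 3.56 to 27.9 to 453 to 571 (5.38 ± 0.37). Some lysozyme and Jonah genes are close copies and may share reads.

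Sperm and late spermatid genes were lower in 27 of 29 cases. All 29 listed genes passed the filter of 10 in 5 libraries. Among the SAMC-null and P223L libraries only 8 passed it. Most were thus tested through their control values and could hardly be higher in SAMC-null. The summed values of the list were 8106 to 22360 in control and 1412 to 2016 in SAMC-null. S-Lap7, a leucyl aminopeptidase of sperm, was at 1380, 1937, 1570, 711 and 1556 in control and at most 0.78 in SAMC-null, and the sperm proteins Mst98Ca, ocn and Mst84Dd were listed at 0 in every SAMC-null library, against control ranges of 238 to 577, 198 to 563 and 121 to 230.0. The transcriptional regulator topi (60.1 to 210.2 and 81.6 to 116) and the mitofusin fzo (249 to 532 and 389.6 to 463) of the male germline did not pass the threshold, though fzo was higher with equal sums (0.65) and topi lower without control replicate 4 (-0.66), the control library that was lowest for both genes. The yolk proteins, made by the female fat body, were low in SAMC-null as well. All 3 were tested through their control values, since none passed the filter among the SAMC-null and P223L libraries. Yp1 was at 146, 49.8, 44.6, 293 and 171 in control and 2.41, 3.87, 3.1, 7.65 and 5.79 in SAMC-null (-4.41 ± 0.50), and Yp2 (-4.17 ± 0.69) and Yp3 (-6.49 ± 0.37) followed. Imaginal disc patterning genes were 5 higher and 9 lower of 16, with nub higher (2.17 ± 0.10) and eya (-2.06 ± 0.10) and Dll (-1.57 ± 0.11) lower. Malpighian tubule markers were 3 higher and 4 lower of 10, tracheal markers 3 and 3 of 8, and oenocyte markers 0 and 5 of 6. The disc, tubule and tracheal counts were not far from the shares of all genes, 38.2% higher and 43.5% lower. The urate oxidase Uro of the tubules fell by 0.91 ± 0.09, the chitin deacetylases serp (-2.17 ± 0.09) and verm (-1.70 ± 0.06) of the trachea fell while the tracheal regulator rib rose from 14.54 to 81.1 to 688 to 905 (3.92 ± 0.38), and the oenocyte enzyme Cyp4g1, which makes cuticular hydrocarbons, fell by 1.37 ± 0.05. The medians of the disc, tubule and tracheal groups were between -0.32 and -0.03 and became 0.28 to 0.57 with equal sums.

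Most genes of the tissue damage list rose. The cytokine upd3 was at 15, 11.8, 8.34, 6.97 and 8.51 in control and 487, 524, 484, 488 and 574 in SAMC-null, a log2 fold change of 5.57 ± 0.18 (adjusted p = 4.5e-11). The JNK pathway transcription factor Ets21C rose from 26 to 43.2 to 857 to 1043 (4.90 ± 0.13), and the JNK phosphatase puc (1.94 ± 0.06) and the AP-1 factor kay (1.58 ± 0.05) rose by less. In this group 8 of 11 rose and 2 fell, the cytokine upd1 (-2.24 ± 0.37) and the TNF ligand egr (-0.84 ± 0.09). Heat shock genes rose in 8 of 14 cases and fell in 2, with Hsp70Bb at 729, 148, 131, 212 and 152 in control and 4898, 8000, 3456, 6300 and 10016 in SAMC-null (4.83 ± 0.44). Its near-identical copy Hsp70Ba had 6.64 ± 0.51, and reads may be shared between the copies. Hsp67Ba was lower (-2.95 ± 0.27), and Hsp27 lower by 0.75 ± 0.19, which did not pass the threshold with all 4 groups in the fit or with equal sums.

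Antimicrobial peptide genes rose in 7 of 12 cases and none fell, while with no filter on low values 4 genes of this list fell. DptB was at 21.9, 3.22, 14.1, 10.4 and 2.84 in control and 247, 505, 168, 185 and 292 in SAMC-null (4.82 ± 0.49, adjusted p = 1.5e-06), and DptA (3.23 ± 0.43), Mtk (3.40 ± 0.52) and Dro (1.56 ± 0.21) rose too, all at values under 600. Of 12 peptidoglycan recognition proteins 7 were lower and 3 higher, and with equal sums the split was 6 each way. The amidase PGRP-SC2 fell from 3018 to 5074 to 613 to 755 (-2.59 ± 0.12), PGRP-SA, the receptor of the Toll pathway, fell by 2.28 ± 0.12, and PGRP-LC, that of the Imd pathway, rose by 0.88 ± 0.06. The stress peptide TotA, abundant in control at 6580, 3605, 2935, 3120 and 5243, was at most 1.55 in SAMC-null (-11.40 ± 0.30), and TotC fell by 4.04 ± 0.55. Detoxification families were spread, with 11 higher and 17 lower of 34 glutathione S-transferases and 26 higher and 46 lower of 82 cytochromes P450. Their medians of -0.25 and -0.44 became 0.35 and 0.16 with equal sums. GstD4, at 556 to 1258 in control and 18.3 to 33.1 in SAMC-null (-5.10 ± 0.21), and Cyp6d5 (-3.34 ± 0.09) and Cyp6w1 (-3.28 ± 0.08) were among those that fell. Of 14 eye pigment genes, w included, 4 rose and 7 fell, which became 10 higher and 1 lower with equal sums, with cn, an enzyme of brown pigment, higher by 1.94 ± 0.15. Before that scaling, the glutathione S-transferase and eye pigment counts were not far from the shares of all genes, 38.2% higher and 43.5% lower.

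P223L is the other line labelled severe, and it was tested directly against SAMC-null, a comparison that shares the SAMC-null libraries with the one above. Of 11168 genes tested, 2798 (25.1%) were higher in SAMC-null and 2500 (22.4%) were lower, together 47.4%. Changes of at least 2-fold numbered 230 (2.06%) and 262 (2.35%), and groups did not overlap for 17.5% of genes upward and 16.4% downward. The carrier transcript was lower in SAMC-null, at 121, 121, 90.4, 117 and 113 against 249, 196, 184, 200.2 and 205 in P223L (-0.88 ± 0.10, adjusted p = 5.2e-06), with no overlap. SAMC-null overlapped control for this transcript, as given above, while every P223L library lay above every control library, so that it differed in P223L. Nuclear respiratory genes were lower than in P223L in 33 of 33 cases for complex I (median -0.51) and 33 of 33 for complexes II to V (median -0.61). For COX6B the values were 3723 to 4155 in SAMC-null and 5591 to 6511 in P223L (-0.62 ± 0.04). Tricarboxylic acid cycle enzymes were lower in 12 of 13 cases and muscle genes in 15 of 16. Mitochondrial ribosomal proteins were lower in 62 of 73 cases by a median of 0.34, of which 33 were lower with equal sums, whose shift here was 0.19. Heat shock genes were higher in 10 of 14 cases and none was lower, but every SAMC-null library lay above every P223L library for only 2 of them. Their summed values overlapped, at 45593 to 77333 in SAMC-null and 40155 to 63311 in P223L. The lipase bmm (1.13 ± 0.05), Nmdmc (1.12 ± 0.11) and upd3 (0.70 ± 0.07) were higher than in P223L, where the same groups were 4 higher and 12 lower of 17 for fat storage, 6 and 5 of 12 for ATF4 targets, and 7 and 0 of 10 for tissue damage.

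**Figure D4:**
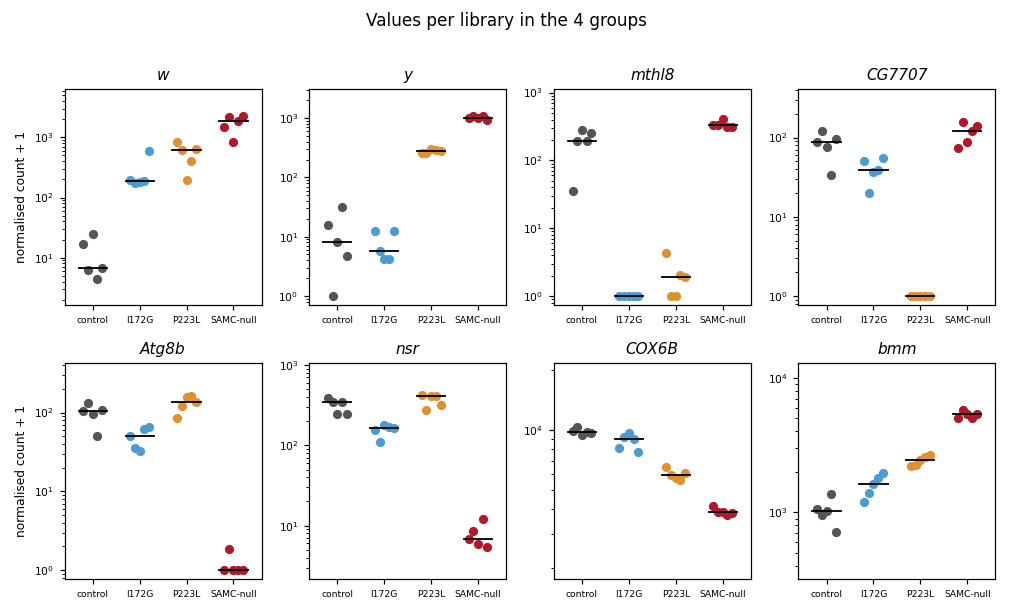
Normalised read counts (log axis, plotted as value + 1) of 8 genes in every library of the 4 groups, with horizontal bars at the group medians. mthl8 and CG7707 are near 0 in all P223L libraries and Atg8b and nsr lowest in SAMC-null libraries, while COX6B is lowest in SAMC-null.

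The largest single differences between the severe lines were in genes nearly absent from 1 of them. The receptor gene mthl8 was at 337, 337, 413, 308 and 313 in SAMC-null, at 0 to 3.24 in P223L, at 0 in every I172G library and at 34.5, 192, 279, 189.7 and 257 in control. Its rise against control (1.12 ± 0.46, adjusted p = 0.039) lost the threshold in each of the 5 fits without 1 SAMC-null library, and control replicate 1 was far below the others. The peptidase S-Lap1 (6.38 ± 0.18), CG7707 (6.80 ± 0.30), CG12470 (5.06 ± 0.74) and CG14644 (4.80 ± 0.30) had at most 24.9 in any P223L library, where CG7707 was listed at 0, and at least 18.8 in every library of the other groups. Lower in SAMC-null than in P223L were Atg8b (-6.84 ± 0.30), CG5623 (-6.82 ± 0.32), nsr (-5.59 ± 0.21) and CG5050 (-5.31 ± 0.16), for which control larvae were above SAMC-null as well. The gene bard had 102 to 180.2 in P223L and at most 2.35 in any control or SAMC-null library, so that it differed in P223L. Genes within 3 Mb of the carrier on chromosome 3R were changed at least 2-fold between SAMC-null and P223L in 27 of 608 cases (4.44%), beside 460 of 10331 elsewhere (4.45%). Between SAMC-null and control the counts were 300 of 662 (45.3%) near the carrier and 4573 of 11341 elsewhere (40.3%).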

How the data were processed

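RNA of whole larvae was measured by sequencing in 5 libraries a group. Per the submitters' processing notes, Salmon 0.11.3, DESeq2 1.26.0 and the BDGP6 build were used by the authors. The deposited signal columns hold a normalised read count per gene for 14081 genes. The same table holds the authors' log2 fold change, a score (the test statistic and a weight) and a p-value, which is missing for 66 genes. The labels state a depth of 3000000 reads. Setting the commonest low value in each library, 0.75 to 1.17, as the worth of 1 read gave 26700000 to 35300000 reads in the libraries of the main comparison. Of values up to 20 steps, 66.4 to 80.6% lay within 0.1 step of a whole multiple, where an even spread gives 20%. No counts were recovered from the values for this reason, and count models were not used.

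Groups came from the labels. SAMC-null was compared with control, and then with P223L, by fitting log2(value + 1) in limma (version 3.58.1, R 4.3.3) with its intensity trend. Genes reaching 10 in 5 or more of the 10 libraries were tested, two-sided, with Benjamini-Hochberg adjustment over all tested genes and a threshold of 0.05. Errors after ± are standard errors. The median standard error was 0.10 against control and 0.07 against P223L. On simulated data with 50 genes changed at each fold, the fit against control recovered 76% at 1.5-fold, 82% at 2-fold and 100% at 4-fold, with 4.79% false calls. The changed genes were drawn from those with a mean level above 50 in control. They were also far fewer than the 81.7% of genes called in the data, so these rates need not hold for the data.

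Symbols and coordinates follow Ensembl release 115 (BDGP 6.54), which matched 13854 genes. The 51 gene lists and the naming rule were chosen with earlier results of these data known. The rule took the carrier gene, the 10 largest increases and decreases against control and 5 against P223L (called, mean of at least 50, no overlap of groups), up to 4 members per list by adjusted p, all serum, mitochondrial genome and yolk genes, and the most abundant genes listed at 0 in 1 group. Other list members, such as those that moved against their list, were named after their values were seen. Several lists have members that belong to another (Hsp22, y, Atg8b). The alternatives were median-ratio rescaling, equal sums, pseudocounts of 0.5 and 4, a minimum of 50 or none, each library left out, a fit over all 4 groups, a block for replicate number, limma's treat against a log2 fold change of 1, and the authors' deposited adjusted p. Summaries used pandas 2.3.3 and numpy 2.4.6 in Python 3.11.15, and plots matplotlib 3.10.9.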

Additional observations from a re-analysis of the deposited data

Results flagged for a closer look

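For each gene named in the text, the library farthest from the others of its group was set against the spread of that group, which is 444 groups of 5 libraries. In 32 of them (7.21%) its gap exceeded Dixon's critical value of 0.71, a size that chance gives in about 1 of 20 groups. Control replicate 1 gave 3 of these. mthl8 was low at 34.5 beside 189.7 to 279 in the others, and Las was high at 518 beside 424 to 448 in the others. Hsp70Bb was high at 729 beside 131 to 212 in the others. Control replicate 3 gave 3 of these. mt:ND2 was low at 114 beside 195 to 228 in the others, and egr was low at 798 beside 1009 to 1084 in the others. TotC was low at 11.7 beside 42 to 55.8 in the others. Control replicate 4 gave 9 of these. CG7227 was high at 27.2 beside 9.47 to 12.7 in the others, and Lpin was high at 4518 beside 3613 to 3768 in the others. mag was low at 101559 beside 112245 to 115084 in the others, and rib was low at 14.54 beside 58.4 to 81.1 in the others. Mst98Ca was low at 238 beside 452 to 577 in the others, and fzo was low at 249 beside 436 to 532 in the others. CG5623 was low at 11.6 beside 36.4 to 44.7 in the others, and CG12470 was low at 114.5 beside 264 to 341 in the others. Syp was low at 9678 beside 11071 to 11232 in the others. Control replicate 5 gave 1 of these. trbl was low at 1066 beside 1312 to 1407 in the others.

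SAMC-null replicate 1 gave 5 of these. Hsc70-5 was high at 10133 beside 8985 to 9260 in the others, and ImpL2 was low at 6043 beside 6755 to 6868 in the others. Jheh2 was high at 821 beside 698 to 711 in the others, and wupA was high at 15116 beside 13893 to 14206 in the others. Cyp6d5 was high at 2758 beside 2394 to 2459 in the others. SAMC-null replicate 2 gave 7 of these. CG17105 was high at 3.63 beside 0 to 0.494 in the others, and mt:lrRNA was low at 1134159 beside 1182338 to 1192095 in the others. Atg8b was high at 0.837 beside 0 in the others, and Kr-h1 was high at 3242 beside 2924 to 2995 in the others. Uro was low at 4213 beside 4675 to 4819 in the others, and S-Lap7 was high at 0.78 beside 0 in the others. CG5623 was high at 1.55 beside 0 in the others. SAMC-null replicate 3 gave 1 of these. CG4743 was low at 90.4 beside 113 to 121 in the others. SAMC-null replicate 4 gave 2 of these. Lsp1beta was high at 40.6 beside 3 to 5.38 in the others, and PolG1 was low at 486 beside 515 to 526 in the others. SAMC-null replicate 5 gave 1 of these. Hsl was low at 1300 beside 1404 to 1447 in the others.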

How the results depend on the processing

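Against control, the counts of 4677 higher and 5329 lower genes stayed within 1.5 times under both pseudocounts, both filters, median-ratio rescaling and all 4 groups in 1 fit. Leaving out 1 library gave 4516 to 4721 higher and 5208 to 5390 lower genes. Equal sums per library gave 7420 higher and 3296 lower, by construction a shift of all genes. Tests against a log2 fold change of 1 ask for larger changes, and gave 1358 higher and 2535 lower with limma's treat and 1352 higher and 2811 lower in the authors' deposited table. Against P223L, equal sums gave 5803 higher and 1170 lower, and all 4 groups in 1 fit gave 1852 higher and 1881 lower, and the cause of the latter was not tested. Leaving out 1 library gave 2451 to 2780 higher and 2273 to 2508 lower. Among the named genes, mt:ND5 (0.41), mt:CoII (0.21) and mt:CoIII (0.38) were reversed with equal sums.

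The values gave no clear sign that replicate numbers pair the libraries, and the labels do not state it. Shared culture or preparation was not tested. Deviations from the group means correlated at 0.015 to 0.0535 between SAMC-null and control libraries of the same number. Over libraries of any number the range was -0.0974 to 0.0793, and 1 SAMC-null library correlated best with its own number. With the replicate block the counts were 4560 higher and 5246 lower against control, and 2874 higher and 2564 lower against P223L, and among the named genes mt:ND2 (-0.25, adjusted p = 0.042) passed the threshold only there and without control replicate 3. The labels state 3000000 reads, while the step of low values points to 26700000 to 35300000. Either depth limits statements on genes near 0, since a gene listed at 0 was not detected and may still be expressed.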

Other observations

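Genes that order development in time, chosen after their values were seen, included large changes in both directions. Syp and Imp are RNA-binding proteins that follow each other in larval neural stem cells, Imp early and Syp late, and chinmo, lin-28 and mamo are regulators of the same kind of timing. Syp was at 11197, 11084, 11071, 9678 and 11232 in control and 41.6, 45.1, 70.8, 55.2 and 47.2 in SAMC-null, a log2 fold change of -7.70 ± 0.12 (adjusted p = 2.0e-13). No library of the groups overlapped, and the control library lowest for Syp was replicate 4. The transcription factor mamo fell from 2445 to 2990 to 39.6 to 121 (-5.43 ± 0.30), and the sex-differentiation factor dsx from 399 to 512 to 26.2 to 43.3 (-3.81 ± 0.14). In the other direction, lin-28 was at 6.89, 5.37, 5.93, 3.48 and 3.78 in control and 369, 419, 446, 376 and 435 in SAMC-null (6.10 ± 0.18, adjusted p = 1.9e-11). Imp rose from 4306 to 5732 to 10801 to 11557 (1.15 ± 0.07) and chinmo from 3853 to 6788 to 19695 to 21635 (1.92 ± 0.12), both without overlap. Eip93F, which acts late in metamorphosis, fell by 2.18 ± 0.26. Between SAMC-null and P223L, Syp (-0.05 ± 0.16) and mamo (-0.11 ± 0.34) did not pass the threshold, and lin-28 (0.83 ± 0.08) was higher in SAMC-null.

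Families of surface proteins and receptors were also chosen after their values were seen. Of the beat genes, which guide motor axons, 14 of 14 rose with a median log2 fold change of 3.04, and of their partners, the side genes, 8 of 8 rose (2.48). The cell recognition proteins of the dpr family rose in 20 of 21 cases (2.79) and those of the DIP family, which bind them, in 9 of 11 (2.69). Of 10 nicotinic acetylcholine receptor subunits 9 rose and 1 fell. Chemosensory receptor families had smaller medians. Odorant receptors rose in 8 of 12 tested cases of 59 in the table (0.89), gustatory receptors were 9 higher and 1 lower of 14 tested (0.69), and ionotropic receptors 10 higher and 2 lower of 18 (0.80). Most members did not pass the filter, and genes low in control could pass it through SAMC-null, which favours increases in these counts. Summed over all members, control and SAMC-null were at 251 to 393 and 814 to 883 for odorant receptors. The sums were 775 to 900 and 1131 to 1269 for gustatory receptors, and 799 to 1038 and 1320 to 1496 for ionotropic receptors. Genes on chromosome Y, whose transcripts come mainly from the male germline, had summed values of 542 to 1557 in control. In SAMC-null the sums were 29.6 to 48, where the sperm and late spermatid list summed to 1412 to 2016. Of the 39 genes, 11 were tested and all 11 fell. With SAMC-null values this low, a gene could hardly reach 10 in 5 libraries without being high in control. The direction of the 11 is thus largely set by the filter, and the difference rests on the sums. Whether the libraries held equal shares of males and females was not tested.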
